A study of Homo sapiens with 18 samples.

Results

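The 7 genes described here encode the intermediate filament proteins of neurons and their precursors: NEFL, NEFM, NEFH, INA, PRPH, VIM and NES. They were taken by symbol from a table of 26372 genes, all 7 were in it, and all 7 passed the filter of a mean of at least 1 FPKM (fragments per kilobase of transcript, scaled to the library's mapped fragments) that left 13785 genes for testing. The libraries came from SH-SY5Y, an established human neuroblastoma line that can be turned into neuron-like cells. All cells had received a FUGW lentivirus coding for ZNHIT3, a zinc-finger protein linked by the series title to the assembly of small nucleolar ribonucleoproteins. The constructs were ZNHIT3-WT, ZNHIT3-C14R and a deletion, which the labels write as 251-254 in replicate 1, 251-255 in replicate 2 and 251-256 in replicate 3. RNA was taken at day 0 or after 18 days in serum-free differentiation medium with dibutyryl cyclic AMP (2 mM), retinoic acid (10 μM), the growth factor BDNF (50 ng/ml) and KCl (20 mM), with 3 libraries in each of 6 construct-by-day groups. Sample titles call the deletion libraries Depleted, without saying what was depleted. Beyond that word the labels name no disruption of the cells' own ZNHIT3. Every library carries a construct, so the WT construct is the reference. The labels do not say whether the 3 libraries of a group came from separate cultures, and p-values then measure only the spread between these libraries.

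Intermediate filaments are rope-like polymers of long coiled-coil proteins that give cells mechanical strength. Neurofilaments, the main intermediate filaments of mature axons, are copolymers of a light (NEFL), a medium (NEFM) and a heavy (NEFH) chain together with α-internexin (INA), or with peripherin (PRPH) in peripheral neurons, and NEFL is the chain that the others build on. Nestin (NES), characteristic of neural progenitors, and vimentin (VIM), characteristic of progenitors and mesenchymal cells, assemble in dividing precursors and are classically replaced by neurofilaments as neurons mature.

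Delivered and own ZNHIT3 transcripts share one value, with day 0 averages of 537.8 (WT), 423.8 (C14R) and 302.5 FPKM (deletion). The day 18 averages were 1153, 653.2 and 301.5 FPKM in the same order. Genes of small RNAs made up 31.4% to 80.1% of a library's summed FPKM. Relative depth, read from the ratios that low values most often take between libraries, was 59.1% to 83.5% of the deepest library at day 0 and 81.2% to 100% at day 18. Absolute depth is unknown, so no counting intervals are given. Of 8 sympathetic neuroblast markers, TH averaged under 1 FPKM while HAND2 had 277.7 FPKM in WT at day 0.

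In GENCODE release 29 on GRCh38, all 7 are protein-coding genes. NEFH lies on chromosome 22 (29480230 to 29491390, plus strand), PRPH on chromosome 12 (49293252 to 49298686, plus strand) and NES on chromosome 1 (156668763 to 156677397, minus strand). INA (103277163 to 103290351, plus strand) and VIM (17228259 to 17237593, plus strand) are both on chromosome 10. Antisense genes share 490 exonic bases with NEFL, 1706 with NEFM, 333 with NEFH and 2445 with PRPH, and VIM-AS1 shares 641 with VIM. Because the use of strand is not given in the sources used here, reads of such pairs cannot be told apart, although VIM-AS1 itself averaged 0.537 FPKM.

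The sequence before the start site is shown for INA, which rose most after NEFL, for VIM, which fell, and for NES, which rose least. RefSeq promoter windows (GRCh38.p14) were matched by symbol for 4 members, these and PRPH. Each line gives the 250 bases before the annotated start, 5′ to 3′ on the gene's strand, for INA at chr10:103276888-103277137, for VIM at chr10:17227991-17228240 and for NES at chr1:156677408-156677657. Capitals mark any match, on either strand, to GGGCGG (the GC box bound by Sp1-type factors), CANNTG (the E-box of basic helix-loop-helix factors), AGGTCA (a half-site of retinoid and other nuclear receptors), TGACG or TGACGTCA (cyclic AMP response elements) and TATAAA.
INA: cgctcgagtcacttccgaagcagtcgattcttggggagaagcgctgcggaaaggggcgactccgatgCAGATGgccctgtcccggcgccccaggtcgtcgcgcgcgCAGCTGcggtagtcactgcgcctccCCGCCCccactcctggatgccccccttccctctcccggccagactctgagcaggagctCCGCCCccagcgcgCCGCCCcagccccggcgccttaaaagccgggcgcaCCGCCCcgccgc
VIM: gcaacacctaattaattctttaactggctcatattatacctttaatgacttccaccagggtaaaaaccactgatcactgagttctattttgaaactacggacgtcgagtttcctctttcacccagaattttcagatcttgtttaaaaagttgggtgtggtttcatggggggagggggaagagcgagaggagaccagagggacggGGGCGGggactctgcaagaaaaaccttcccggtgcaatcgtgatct
NES: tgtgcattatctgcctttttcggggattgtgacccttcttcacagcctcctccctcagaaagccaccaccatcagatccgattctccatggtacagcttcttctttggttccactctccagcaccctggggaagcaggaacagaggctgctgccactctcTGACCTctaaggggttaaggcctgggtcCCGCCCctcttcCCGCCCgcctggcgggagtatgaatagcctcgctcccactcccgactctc
In the whole 300-base windows, which run 50 bases past the start, INA held 4 GGGCGG matches and 2 CANNTG matches, VIM held 1 GGGCGG match, and NES held 4 GGGCGG, 1 AGGTCA and 1 TGACG match. PRPH held 1 TATAAA match, 31 bases before the start, and 1 CANNTG match. Over all 35116 windows of that length, 45.0% held GGGCGG, 68.7% CANNTG, 13.8% AGGTCA, 24.6% TGACG (which TGACGTCA contains), 1.85% TGACGTCA and 11.5% TATAAA. The printed stretch was 72.8% G or C in INA, 58.0% in NES and 46.0% in VIM, against a median of 58.0% over all windows. The AGGTCA match of NES begins 90 bases before the start. These matches are descriptions of letters and not binding sites.

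From day 0 to day 18 of differentiation 5 of the 7 genes changed in each line: NEFL, INA, NEFM and NES rose and VIM fell, while NEFH and PRPH did not pass the test. Time in culture, the medium and its additives differ together between the days and cannot be told apart. Among all genes tested, 72.2% (WT), 72.9% (C14R) and 73.0% (deletion) passed, so that 5 of 7 is near the background share and the sizes carry more than the count. In each line 4 of 7 were called higher, against 38.2% of all genes in WT, 37.9% in C14R and 38.6% in deletion. In each line 1 was called lower, against 34.0%, 35.0% and 34.4% of all genes in the same order. The median log2 change of the 7 genes was 0.37 (WT), 0.47 (C14R) and 0.44 (deletion), against 0.03, 0.02 and 0.03 over all genes. Day 18 and day 0 libraries did not overlap for the same 5 genes in each line, for which the exact two-sided permutation p was 0.1, the smallest that 3 against 3 libraries can give. Over all genes tested, libraries of the 2 days did not overlap for 75.7% in WT, 71.8% in C14R and 77.7% in deletion.

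**Figure D1:**
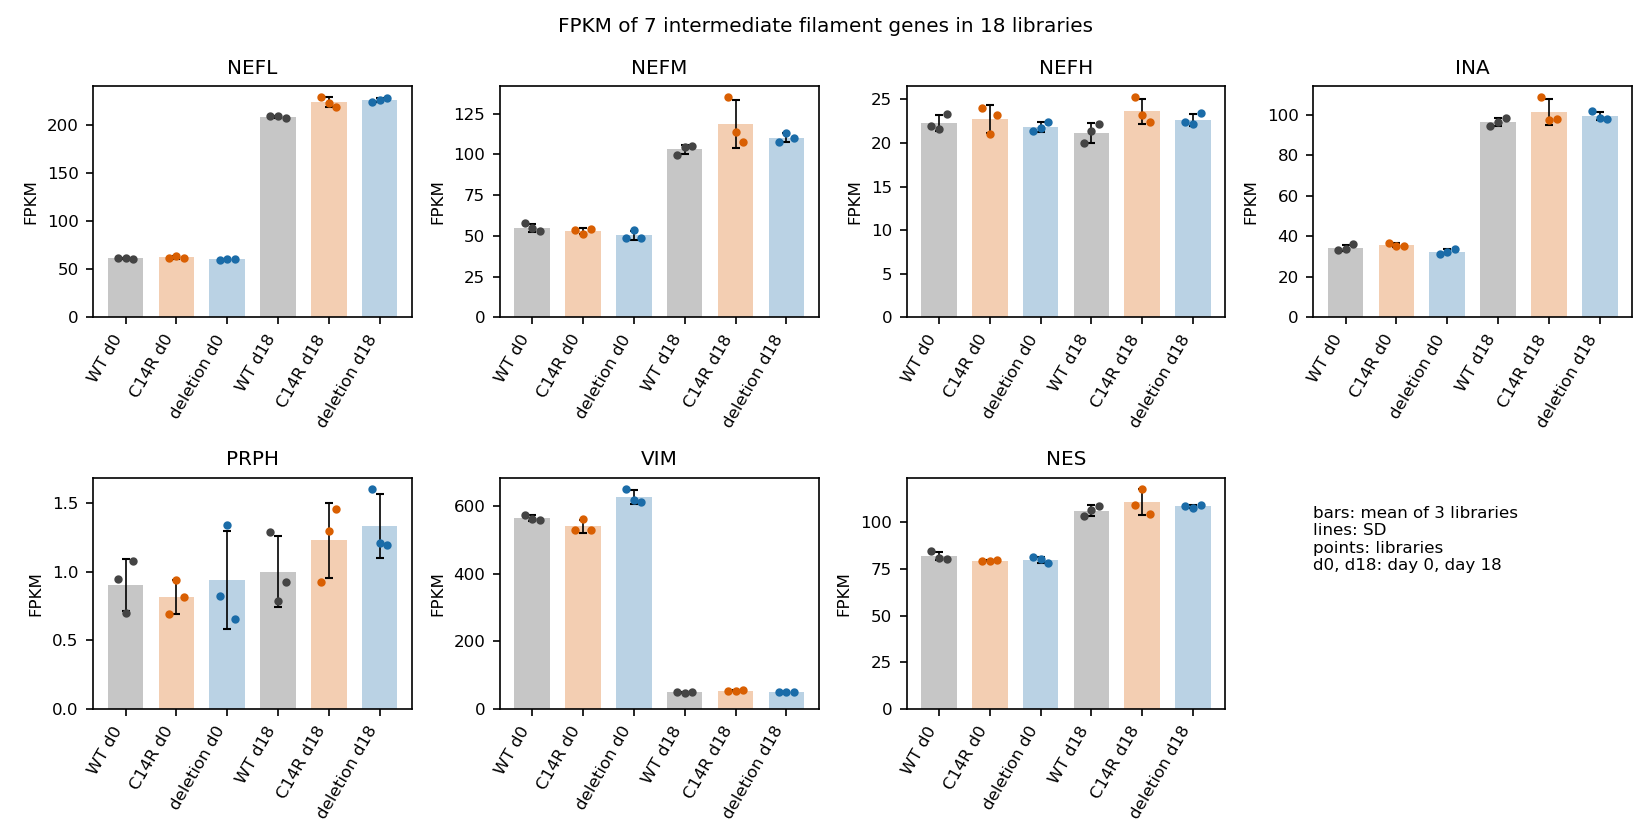
FPKM (vertical axes, starting at 0) of each gene in the 6 groups; bars are means of 3 libraries, lines SD and points libraries. NEFL, NEFM, INA and NES stand higher at day 18 in every line, VIM drops from 528 to 652 FPKM at day 0 to 47.8 to 55.2 at day 18, and NEFH and PRPH overlap between days.

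NEFL, the light chain (24950955 to 24957110, minus strand), is a neighbour of NEFM on chromosome 8. It had 61.5, 61.5 and 61.2 FPKM in the 3 WT libraries of day 0 and 208.8, 209.5 and 207.2 at day 18. In C14R it had 61.4, 64.1 and 61.8 at day 0 and 229.0, 222.7 and 219.1 at day 18. In deletion libraries it had 59.8, 60.8 and 60.8 at day 0 and 223.9, 225.9 and 228.2 at day 18. Every day 18 library was thus above every day 0 library, and replicates of a group differed by little, with a coefficient of variation of 0.246% in WT at day 0. The rise was 3.40-fold in WT, a log2 change of (FPKM + 1) of 1.75 (SE 0.03, limma adjusted p = 5.16e-18), 3.58-fold in C14R (log2 change 1.82) and 3.74-fold in deletion libraries (log2 change 1.88).

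NEFM, the medium chain (24913012 to 24919098, plus strand), had 57.7, 54.7 and 52.8 FPKM in WT at day 0 and 99.9, 104.7 and 105.0 at day 18. The C14R libraries had 53.7, 51.0 and 54.0 and then 135.2, 113.5 and 107.4. The deletion libraries had 48.8, 53.5 and 48.8 and then 107.9, 113.3 and 109.9. C14R replicate 1 of day 18 was the highest of all 18 libraries, and the groups of the 2 days were apart in each line. The rise was 1.87-fold in WT (log2 change 0.90, SE 0.06, limma adjusted p = 1.16e-09), 2.24-fold in C14R (log2 change 1.14) and 2.19-fold in deletion libraries (log2 change 1.12). Without C14R replicate 1 of day 18 the log2 change in C14R was 1.05.

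NEFH, the heavy chain, whose long tail carries many phosphorylation sites, was flat by comparison. It had 21.9, 21.6 and 23.4 FPKM in WT at day 0 and 20.0, 21.3 and 22.2 at day 18, so that the days overlapped. Over all 9 libraries of a day it ran from 21.0 to 24.0 at day 0 and from 20.0 to 25.3 at day 18. The log2 change was -0.07 in WT (SE 0.06, 95% interval -0.19 to 0.05, limma adjusted p = 0.273), 0.05 in C14R (adjusted p = 0.411) and 0.05 in deletion libraries (adjusted p = 0.45). Its sign depends on the scaling: when small RNA genes were left out and libraries rescaled, it was 0.13 in WT (adjusted p = 0.073) and passed at 0.24 in C14R (0.00308) and 0.27 in deletion libraries (0.00118). That rescaling moved the median of all genes from 0.03 to 0.23 in WT, and the percentage of called genes that were higher from 52.9% to 68.9%. Relative to the median gene, NEFH stood at -0.10 in WT under both scalings.

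INA, α-internexin, which is made early in neuronal development, had 33.1, 33.6 and 36.1 FPKM in WT at day 0 and 94.6, 96.3 and 98.6 at day 18. C14R libraries went from 35.2 to 36.8 FPKM up to 97.4 to 108.8, and deletion libraries from 31.3 to 33.8 up to 98.0 to 101.7. All 9 libraries of day 18 lay well above all 9 of day 0. The rise was 2.82-fold in WT (log2 change 1.47, SE 0.05, limma adjusted p = 1.54e-14), with log2 changes of 1.48 in C14R and 1.58 in deletion libraries.

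PRPH, peripherin, the filament protein of peripheral neurons, had the lowest level of the 7 genes throughout. Group averages were 0.8144 to 0.9985 FPKM except at day 18 in C14R (1.227) and deletion libraries (1.335). PRPH thus passed the filter of 1 FPKM only through the groups where it was highest, which limits what its day tests in these lines can show. Its lowest, median and highest values were 0.657, 0.822 and 1.34 FPKM over the 9 libraries of day 0 and 0.788, 1.21 and 1.61 over those of day 18. The days overlapped, and the coefficient of variation within a group was 15.1% to 38.0%. The log2 change was 0.07 in WT (SE 0.14, limma adjusted p = 0.679), 0.29 in C14R (adjusted p = 0.0715) and 0.28 in deletion libraries (adjusted p = 0.0828). With small RNA genes left out it passed in C14R (0.54, adjusted p = 0.0172) and in deletion libraries (0.55, adjusted p = 0.0152). Without deletion replicate 2 of day 0 it also passed in both (C14R 0.29, adjusted p = 0.047; deletion 0.42, adjusted p = 0.0133), and without C14R replicate 1 of day 18 in C14R (0.39, adjusted p = 0.028). Without deletion replicate 3 of day 0 the log2 change in deletion libraries was 0.17 (adjusted p = 0.316). On the log2(FPKM + 1) scale the change of so low a gene is understated.

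VIM was the most abundant of the 7 genes at day 0 and had the largest change of the 7 in each line. It had 574.7, 562.4 and 558.9 FPKM in WT at day 0 and 50.1, 47.8 and 50.0 at day 18. C14R libraries went from 528.5, 562.5 and 528.4 to 54.3, 52.7 and 55.2, and deletion libraries from 651.6, 616.9 and 612.8 to 51.0, 48.7 and 48.8. VIM fell 11.5-fold in WT (log2 change -3.49, SE 0.04, limma adjusted p = 1.95e-20), 9.98-fold in C14R (log2 change -3.30) and 12.7-fold in deletion libraries (log2 change -3.64). These are bulk libraries, in which fewer cells of a type and less RNA per cell cannot be told apart. Markers of mesenchymal cells moved with VIM: all 7 of the 9 listed genes that could be tested fell in WT, among them FN1 (fibronectin) from 97.8 to 7.19 FPKM and CD44 from 32.4 to 2.91. Of these 7, YAP1 (3.40 to 0.454 FPKM in WT) passed the filter only through day 0. The summed level of the 9 markers ran from 184 to 194 FPKM in WT at day 0 and from 35.8 to 36.8 at day 18. None of the 9 was at 0 in every library, and their part in the fall of VIM was not tested. The 5 cycling-cell markers also all fell in WT, from a sum of 311 to 320 FPKM to 111, and their part was not tested either.

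NES had 84.6, 81.0 and 80.4 FPKM in WT at day 0 and 103.3, 106.5 and 109.0 at day 18. Over all 9 libraries it ran from 78.3 to 84.6 at day 0 and from 103.3 to 118.1 at day 18, with no overlap. The rise was 1.30-fold in WT (log2 change 0.37, SE 0.04, limma adjusted p = 2.11e-07), with log2 changes of 0.47 in C14R and 0.44 in deletion libraries. The progenitor gene NES and the progenitor gene VIM thus went in opposite directions in every line.

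**Figure D2:**
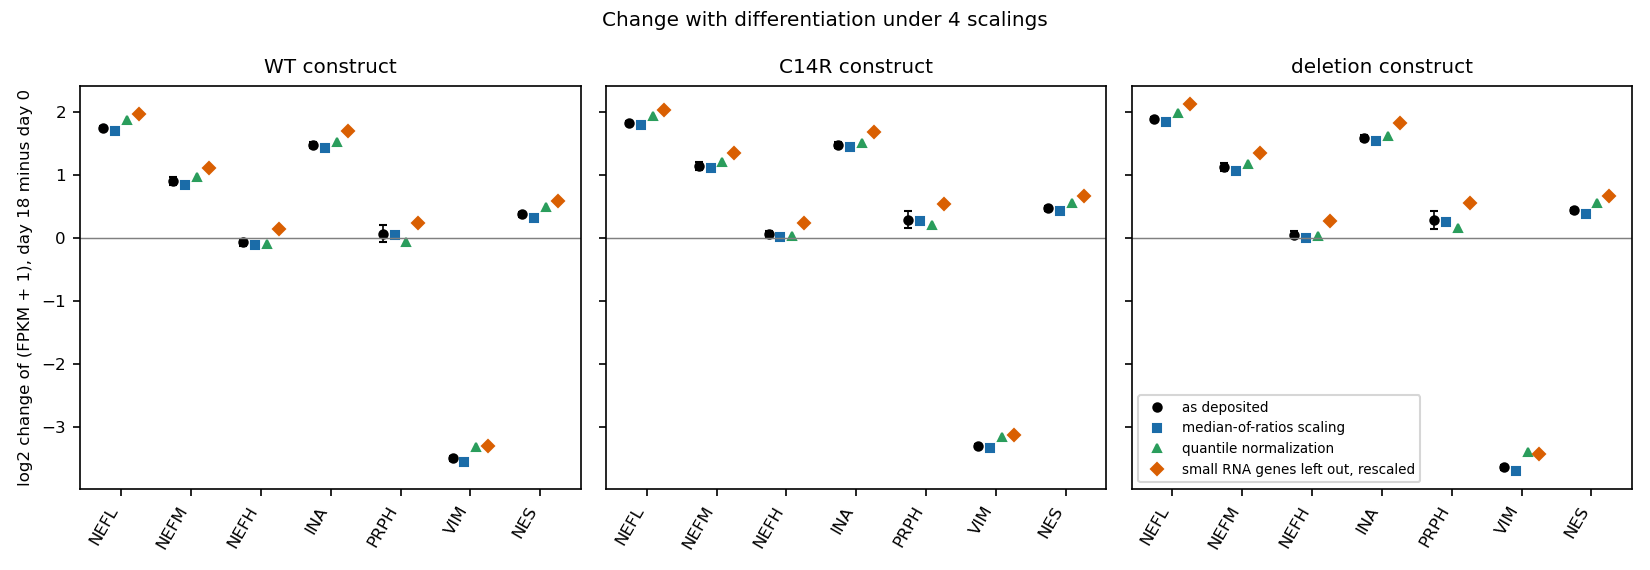
Log2 change of (FPKM + 1) from day 0 to day 18 (vertical axis) of the 7 genes in each line, under the deposited scaling (black, with SE) and 3 others. NEFL, NEFM, INA, NES and VIM keep their direction under all 4, from -3.69 for VIM to 2.11 for NEFL in deletion libraries, while NEFH changes sign in WT and in deletion libraries and PRPH in WT. With small RNA genes left out, PRPH stands at 0.54 in C14R and 0.55 in deletion libraries, and NEFH at 0.24 and 0.27.

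The ranking of the 7 genes by FPKM, which is per transcript length, turned over between the days. At day 0 the means over 9 libraries were 577.4 FPKM for VIM, 80.5 for NES, 61.4 for NEFL, 52.8 for NEFM, 34.2 for INA, 22.3 for NEFH and 0.886 for PRPH, and the ranges of neighbours in this order did not overlap. At day 18 NEFL came first with 219.4 FPKM, followed by NEFM with 110.7, NES with 108.5 and INA with 99.1, whose ranges overlapped with each other, and then by VIM with 51.0, NEFH with 22.5 and PRPH with 1.19. VIM made up 67.4% to 72.8% of the summed FPKM of the 7 genes at day 0 and 7.88% to 9.08% at day 18. NEFL went from 6.68% to 7.89% of that sum at day 0 to 34.5% to 36.9% at day 18. The sum itself was 783 to 895 FPKM at day 0 and 578 to 663 at day 18.

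**Figure D3:**
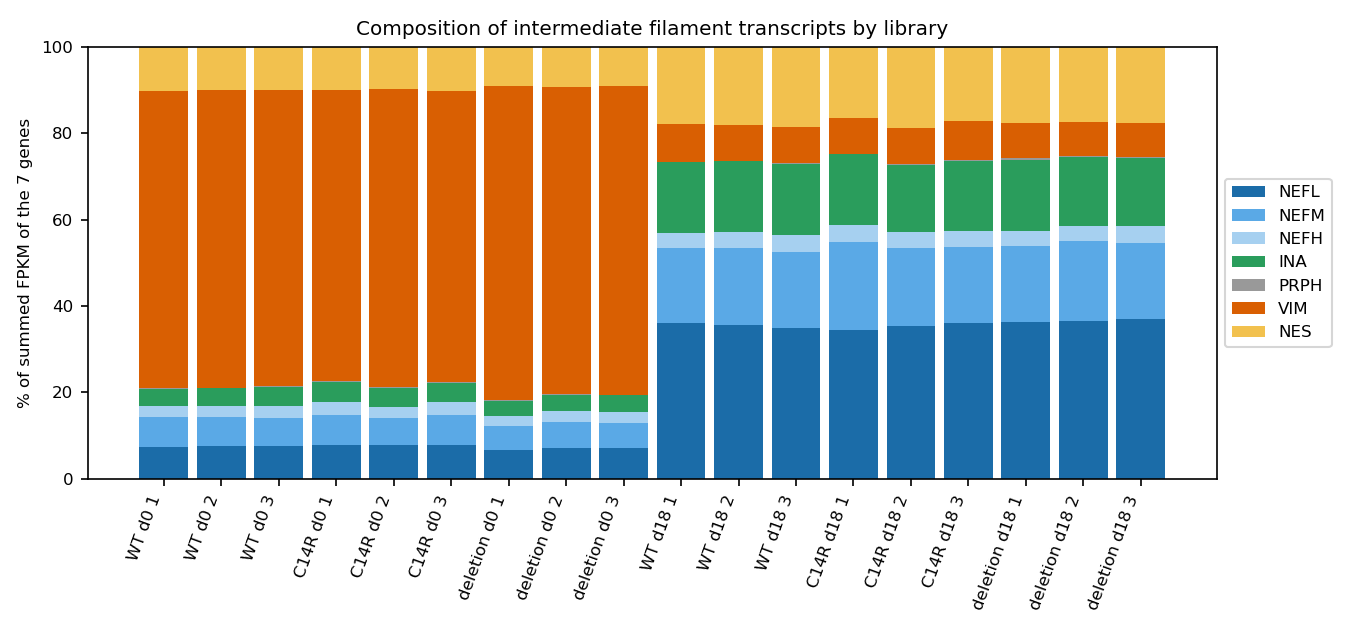
Share of each gene in the summed FPKM of the 7 genes (vertical axis, percent), one bar per library. VIM fills 67.4% to 72.8% of each bar at day 0 and 7.88% to 9.08% at day 18, when the 3 neurofilament chains and INA together fill most of it.

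Within the neurofilament triplet the light chain gained share. A ratio of 2 genes within one library does not depend on how that library was scaled. NEFL was 43.6% to 47.1% of the summed FPKM of NEFL, NEFM and NEFH at day 0 and 58.8% to 63.5% at day 18. NEFH was 15.4% to 17.3% and then 6.07% to 6.64%. The ratio of NEFM to NEFL was 0.796 to 0.938 before and 0.478 to 0.590 after differentiation, and that of NEFH to NEFL was 0.327 to 0.392 and then 0.0956 to 0.110. The ratio of INA to NEFL moved less, from 0.523 to 0.599 down to 0.430 to 0.476. The ratio of NES to VIM was 0.125 to 0.151 at day 0 and 1.89 to 2.24 at day 18. None of these ratios overlapped between the days in any of the 18 libraries.

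Between constructs at the same day the 7 genes differed little, and the one call was VIM between the variants. At day 0, C14R against WT gave log2 differences of -0.07 to 0.06 with none of 7 called, where 0% of all genes were called by limma and 388 had an unadjusted p under 0.05, 0 of the members among them. Libraries did not overlap for 1 member, NES, against 9.47% of all genes. Deletion against WT gave -0.13 to 0.15 with none of 7 called and 1 at an unadjusted p under 0.05. Among the 13785 genes tested, 0.029% were called and 857 had an unadjusted p under 0.05. Libraries did not overlap for NEFL and VIM, against 18.0% of all genes. The largest of these differences was that of VIM, which was higher in deletion libraries by 0.15 (95% interval 0.07 to 0.23) with an adjusted p of 0.519.

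VIM at day 0 was lower in C14R than in deletion libraries by a log2 difference of -0.22 (SE 0.04, limma adjusted p = 0.0403), the 1 call among the 7 genes where 0.058% of all genes were called. The C14R libraries had 528.5, 562.5 and 528.4 FPKM and the deletion libraries 651.6, 616.9 and 612.8, with WT between them at 558.9 to 574.7. Libraries of the 2 variants did not overlap for VIM, INA and NEFL, against 21.3% of all genes. The call was narrow: it was lost with the replicate block (adjusted p = 0.0601), with median-of-ratios scaling (0.0546), when the fit held just the 6 libraries at issue (0.112), with quantile normalization (0.352), small RNA genes left out (0.164) or no variance trend (0.121), and in 14 of the 18 fits that left out 1 library, with adjusted p of 0.0236 to 0.282 over all 18. Summed mesenchymal markers were 178 to 184 FPKM in C14R and 195 to 221 in deletion libraries at day 0, and their part in the difference was not tested.

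**Figure D4:**
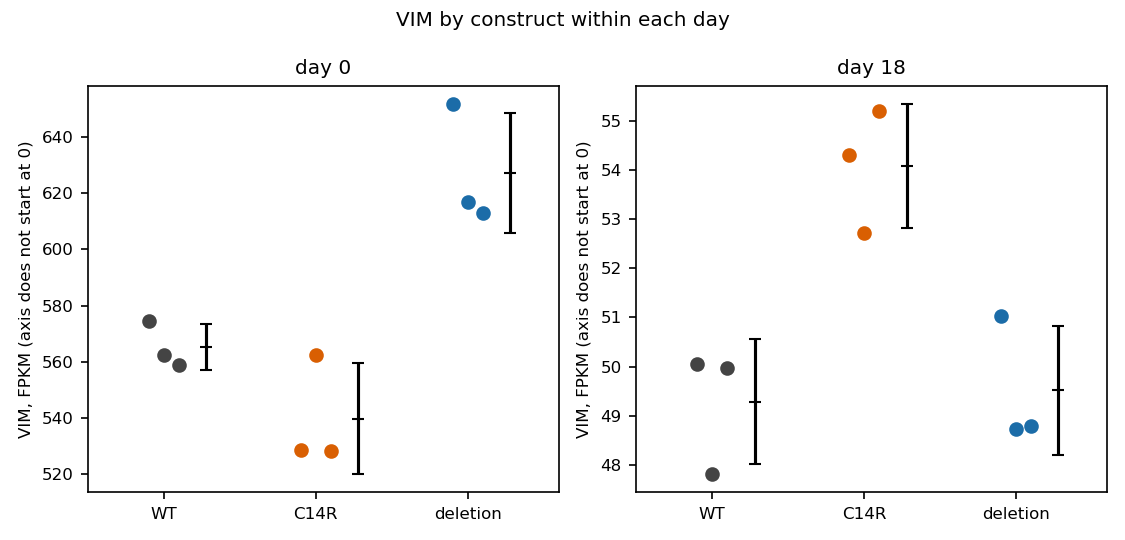
VIM FPKM (vertical axes, not starting at 0) by construct at day 0 (left) and day 18 (right); points are libraries, with mean and SD beside them. Deletion libraries are highest at day 0 (612.8 to 651.6), and C14R libraries are highest at day 18 (52.7 to 55.2).

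At day 18 each variant was compared with the same 3 WT libraries, so the 2 comparisons share their reference. C14R against WT gave log2 differences of 0.06 to 0.19 with none of 7 called and 4 at an unadjusted p under 0.05. Among the 13785 genes tested, 0.0363% were called and 1535 had an unadjusted p under 0.05. Libraries did not overlap for 4 members, NEFL, NEFM, NEFH and VIM, all higher in C14R, against 11.1% of all genes. NEFL was 219.1 to 229.0 FPKM in C14R and 207.2 to 209.5 in WT (difference 0.10, 95% interval 0.04 to 0.16, limma adjusted p = 0.184). NEFM differed by 0.19 (0.06 to 0.33, adjusted p = 0.258), NEFH by 0.15 (0.03 to 0.27, adjusted p = 0.32) and VIM by 0.13 (0.05 to 0.21, adjusted p = 0.175). Without C14R replicate 1 the difference of NEFM was 0.10.

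Deletion against WT at day 18 gave differences of 0.01 to 0.23 with none of 7 called and 1 at an unadjusted p under 0.05. Among the 13785 genes tested, 0.0725% were called and 1576 had an unadjusted p under 0.05. Libraries did not overlap for NEFL and NEFM, against 18.9% of all genes. NEFL was 223.9 to 228.2 FPKM in deletion libraries, a difference from WT of 0.12 (95% interval 0.05 to 0.18, limma adjusted p = 0.176). C14R against deletion gave -0.07 to 0.12 with none of 7 called and 1 at an unadjusted p under 0.05. Here 0.029% of all genes were called and 1539 had an unadjusted p under 0.05. Libraries did not overlap for VIM alone, against 12.2% of all genes. An adjusted p above the threshold does not show that the lines were alike. The 95% intervals leave room for differences from WT of up to 0.18 for NEFL, 0.33 for NEFM (C14R) and 0.52 for PRPH (deletion).

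The change with differentiation differed between lines for 1 member. VIM fell less in C14R than in deletion libraries, with an interaction of 0.34 on the log2 scale (SE 0.05, 95% interval 0.23 to 0.45, limma adjusted p = 0.0225), where 0.0508% of all genes were called. The difference of C14R from deletion was -0.22 at day 0 and 0.12 at day 18 (adjusted p = 0.398). The call was lost in 7 of 18 fits that left out 1 library (adjusted p of 0.024 to 0.124 over all 18), when the fit held just the 12 libraries at issue (0.173), and with quantile normalization (0.239), small RNA genes left out (0.0811) or no variance trend (0.0928). Against WT, the interaction with C14R passed for none of 7 members, where 0% of all genes passed and 790 had an unadjusted p under 0.05, and that with the deletion for none of 7, where 0.0145% passed. At an unadjusted p under 0.05 there were 2 members in the first and 3 in the second, against 790 and 1014 of the 13785 genes tested.

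Genes around the filaments were described from lists of other intermediate filaments, linkers, kinases and phosphatases, turnover factors, transport motors and regulators. The counts of each list in WT stand beside 38.2% of all genes called higher, 34.0% lower and 72.2% either way. Among the genes named below, KRT8, CRYAB and SNAI1 averaged under 1 FPKM at day 18 in every line, and PPL at day 0. They passed the filter only through the day where they were high, which limits what their day tests can show. The pseudocount also understates their changes. Of 15 other intermediate filament genes 8 could be tested, and in WT 7 fell, none rose and 1 did not pass, with a median log2 change of -1.08. KRT18 and KRT8, the keratin pair of simple epithelia, went from 33.4 to 2.69 and from 1.88 to 0.105 FPKM in WT (log2 changes -3.22 and -1.37). On the FPKM scale these falls were 12.4-fold for KRT18 and 17.9-fold for KRT8. The lamins of the nuclear envelope fell as well, LMNB1 by 1.34 and LMNA by 1.13 on the log2 scale. GFAP, the astrocyte filament, and DES, the muscle filament, averaged under 1 FPKM, and KRT14 was listed at 0 in every library.

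Of 10 transport motor genes, which move filaments and other cargo within cells, 8 rose in WT, none fell and 2 did not pass, with a median of 0.77. KIF5A, a neuronal kinesin heavy chain, rose to 72.8 ± 0.55 FPKM at day 18 from 11.8 ± 0.328 at day 0 (mean ± SD, n = 3 each). Its log2 change was 2.53 (SE 0.04), with a limma adjusted p of 3.02e-18. KIF5C rose by 1.23, the kinesin light chain KLC1 by 1.11 and the myosin MYO5A by 1.09, while the widely expressed KIF5B, named after its value was seen, had a log2 change of 0.06 (adjusted p = 0.281).

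Of 22 kinases and phosphatases that act on filament proteins 21 could be tested, of which 14 rose, 3 fell and 4 did not pass in WT, with a median of 0.34. The number called either way is near the background of 72.2%. CDK5R2, an activator of the neuronal kinase CDK5, rose by 1.52 and MAPK3 by 1.21, while CDK5 itself, named after its value was seen, had a log2 change of -0.06 (limma adjusted p = 0.288). The mitotic kinases AURKB and CDK1, which phosphorylate vimentin in dividing cells, fell by 1.70 and by 1.33. Among 11 turnover and chaperone genes 7 rose, 3 fell and 1 did not pass, with a median of 0.40. The ubiquitin ligase TRIM2, which acts on NEFL, rose by 0.94. The small heat shock protein CRYAB fell by 1.57, from 2.40 to 0.130 FPKM, and the protease CAPN2 by 0.78.

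Of 8 linker genes 5 could be tested, of which 2 rose, 2 fell and 1 did not pass, with a median of -0.10. PPL (periplakin) rose by 1.20 and DST (dystonin) by 0.46, SYNE3 fell by 0.44 and MACF1 by 0.30. Of 18 regulators 13 could be tested, of which 3 rose, 7 fell and 3 did not pass, with a median of -0.35. Here too the number called either way is near the background of 72.2%. SNAI1, TWIST1 and ZEB2, factors of the mesenchymal state, fell by 1.72, by 1.05 and by 0.68, and JUN rose by 0.62. ZEB1, a factor of the same kind named after its value was seen, rose from 20.8 to 26.8 FPKM in WT (log2 change 0.35, limma adjusted p = 0.000228), and by log2 changes of 0.43 in C14R and 0.28 in deletion libraries. The medians over these lists stand beside a median of 0.03 over all genes tested. In comparisons of constructs and in the interactions, none of the genes of these 6 lists was called.

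**Figure D5:**
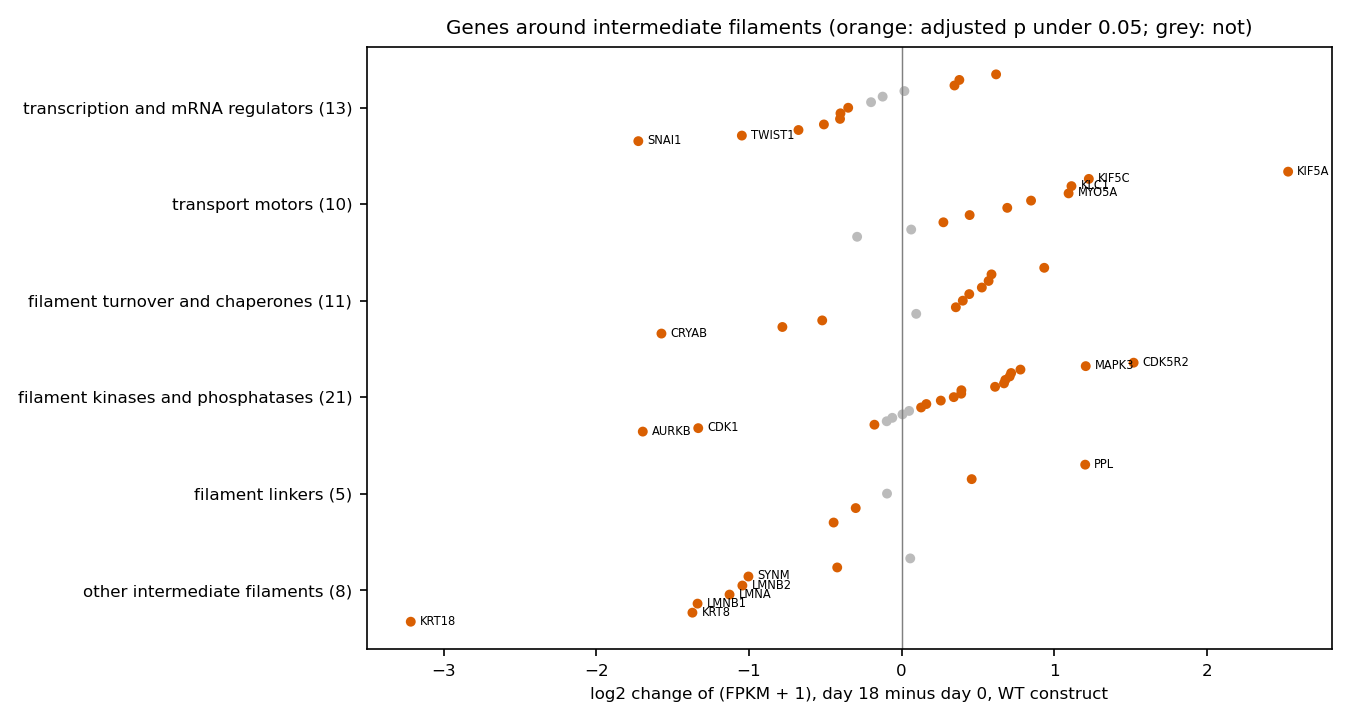
Log2 change of (FPKM + 1) from day 0 to day 18 in the WT line (horizontal axis) for the tested genes of each list (number tested in brackets), orange where limma's adjusted p was under 0.05. Transport motors lie mostly to the right, up to 2.53 for KIF5A, and other intermediate filaments to the left, down to -3.22 for KRT18.

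The genes whose centred log2 profiles over the 18 libraries lay closest to a member were found by the mean absolute difference. These profiles pool both days, so closeness largely reflects a similar change between the days. Shared regulation was not tested. For NEFL they were TANC2, a synaptic scaffold protein (0.04), and SNAP25, a synaptic vesicle fusion protein (0.04, from 87.1 to 305.8 FPKM and also on the list of neuronal markers), against a median of 0.90 for all genes tested. For INA they were SCG3, a secretory granule protein (0.04), and RBM20, an RNA-binding protein (0.04). For NEFM the closest 2 included ZNF610 (0.05), and for NES they were ZNF609 (0.03) and CHP1 (0.03). For VIM they were F2RL2 (0.08) and ANXA1 (0.08), against a median of 1.75. Both are far less abundant, F2RL2 going from 11.7 to 0.169 FPKM and ANXA1 from 10.9 to 0.0103, so that the pseudocount bounds their change and on the FPKM scale they fell further than VIM. For NEFH the closest were NFIB (0.03) and CKAP5 (0.04), and for PRPH PLEKHG5 (0.09) and AES (0.10).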

How the data were processed

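RNA-seq was made from 18 libraries of SH-SY5Y cells. Libraries were made from ribosomal RNA-depleted, DNase-treated total RNA, per the labels' protocols. The authors deposited FPKM, 1 value per gene symbol and library, the unit being taken from the file's name and its values. The submitters' processing notes name TopHat2, STAR, Cufflinks 2.2.1 and hg38, with no role or order. Annotation, strand use and scaling between libraries are not given in the sources used here. Columns and groups were matched by sample title.

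Values were used as log2(FPKM + 1). Genes with a mean of at least 1 FPKM over all libraries (13785) were fitted in one linear model of 6 group means with limma 3.58.1 in R 4.3.3, with moderation along a mean-variance trend and Benjamini-Hochberg adjustment over all genes within each of 12 comparisons (threshold 0.05). The model code was tested on simulated data. Shares, ratios and likeness are descriptions without a test. Named genes were the 7 members, up to 4 genes of each list with the largest called change in WT, list genes called between constructs, and the 2 closest genes to each member. CDK5, KIF5B and ZEB1 were named after their values were seen, and markers are named with their values. The members, lists and tests were chosen with earlier results of these data known. A few genes that these rules name are not reported here. Protein sequences were not used here.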

Additional observations from a re-analysis of the deposited data

Results flagged for a closer look

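VIM stood out because its change with differentiation differed between 2 lines by a test of the difference itself. The fall was smaller in C14R (log2 change -3.30) than in deletion libraries (-3.64), an interaction of 0.34 (limma adjusted p = 0.0225). All 3 C14R libraries were below all 3 deletion libraries at day 0 and above them at day 18. Libraries of these 2 lines did not overlap, in either direction, for 21.3% of all genes at day 0 and 12.2% at day 18. The adjusted p ranged from 0.00403 to 0.239 over 28 alternatives, 17 of which kept the call.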

How the results depend on the processing

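The changes of NEFL, NEFM, INA, VIM and NES from day 0 to day 18 kept direction and call in all 420 alternative values (28 alternatives, 5 genes, 3 lines). The group means of the VIM share and both NEFL shares moved by less than 1 SD in all 54 values without 1 library. That outcome was fixed in advance, because leaving out 1 of 3 libraries cannot move their mean by 1 SD, so it says nothing about stability. The number of members called stayed within 1.5 times in all 3 day comparisons, a limit that a rise from 5 to all 7 members cannot pass. With small RNA genes left out all 7 were called in C14R and in deletion libraries, NEFH and PRPH included. Under that rescaling the median log2 change of all genes was 0.21 in C14R and 0.25 in deletion libraries. For C14R against deletion at day 0, 0 members were called with median-of-ratios scaling, quantile normalization, small RNA genes left out, the replicate block, no variance trend or only the libraries compared, and 0 to 1 without 1 library. For the C14R against deletion by day interaction, 0 were called with quantile normalization, small RNA genes left out, no variance trend or only the libraries compared, and 0 to 1 without 1 library. Array weights gave 1 call in C14R against WT at day 18 (VIM, adjusted p = 0.028) and 1 in deletion against WT at day 18 (NEFL, 0.0414). The cause of these shifts was not tested.

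NEFH changed sign in WT with small RNA genes left out (0.13), in C14R with array weights (-0.02) and in deletion with median-of-ratios scaling (-0.0044). In C14R it ranged from -0.0006 to 0.09 without 1 library. PRPH changed sign in WT with quantile normalization (-0.06) and ranged from -0.03 to 0.14 without 1 library. PRPH could not be tested at a mean of at least 5 FPKM. PRPH passed in 4 of 27 alternatives in C14R and 3 of 27 in deletion libraries. Whether the replicate numbers of the titles pair the libraries is not settled. Of 45 same-numbered pairs of groups, 6 had deviations correlated above 0.1 (median -0.01), but pairs with different numbers were not examined beside them. At day 0 small RNA genes made up 76.2% to 80.1% of summed FPKM in replicate 1 of the lines and 55% to 56.2% in replicate 2. In replicate 3 of day 0 the lines differed, from 55.7% in WT to 79.4% in C14R. The block moved the members called from 1 to 0 in C14R against deletion at day 0 and changed no other call. Absolute depth is unknown, which limits what can be said of PRPH most.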

Other observations

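Within groups the 7 genes did not move as one. After subtracting each group's mean, Pearson correlations between members over the 18 libraries ran from -0.50 (NEFH with VIM) through a median of -0.03 to 0.73 (NEFH with INA) over 21 pairs, given as a description, since libraries of a group share construct and day. NEFL and NEFM, neighbours on chromosome 8, had 0.44. C14R replicate 1 of day 18 stood above its group mean by 0.19 for NEFM, 0.10 for INA and 0.09 for NEFH on the log2 scale, and by 0.03 for NEFL and 0.01 for VIM. The same library stood at -0.20 for PRPH and -0.01 for NES.

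Of 9 neuronal markers 8 could be tested and all 8 rose in WT, among them TUBB3 (neuronal tubulin, 114.2 to 244.2 FPKM) and GAP43 (a growth cone protein, 45.1 to 261.4 FPKM), with a median log2 change of 1.17. RBFOX3 averaged under 1 FPKM. Of 6 glial markers 2 could be tested and both rose in WT, among them S100B from 1.40 to 5.55 FPKM, while the 4 others, SOX10, ERBB3 and MBP among them, averaged under 1 FPKM over all 18 libraries and were not tested. ERBB3 was at 0.248 FPKM in WT at day 0 and 1.65 at day 18, a ratio of 6.64, and libraries of the days did not overlap in any line. Of 7 sympathetic neuroblast markers tested, 3 rose, 2 fell and 2 did not pass in WT: DBH, the noradrenaline-making enzyme, went from 64.0 to 444.6 FPKM, and GATA2 from 98.8 to 26.1. The mesenchymal marker WWTR1 was the only marker called between constructs. It was lower in deletion than in WT libraries at day 18 (1.36 against 2.24 FPKM, log2 difference -0.46, limma adjusted p = 0.042). In that comparison 0.0725% of all genes were called, and WWTR1 was not examined under the alternative fits. VIM differed by 0.01 between these groups on the same day.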
